A study of Drosophila melanogaster with 6 samples.

Results

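The 59 best-counted long non-coding RNA genes of a fruit fly head RNA-seq experiment were examined. They were selected on measured values: a gene was a member if its FlyBase symbol began with lncRNA:, asRNA: or CR plus digits and its raw counts summed over all 6 libraries reached at least 300. That left 59 of 2645 rows with such a symbol, in a table of 17753 genes. Levels below are therefore descriptions. The sum is over both groups, but near the threshold a gene can pass through the group where it is higher: 4 members (CR13130, CR45517, CR44366 and CR40469) had under 150 counts in RU486 libraries and 0 members had so few in EtOH libraries, which were deeper. Counts of calls are therefore also given without these 4. The 3 members with the lowest sums were CR40469 with 315 counts, CR45082 with 316 and CR44366 with 320, and the 3 rows just under the threshold were CR32553 with 299, CR44997 with 294 and CR42653 with 290.

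Male *Drosophila melanogaster* carried Repo-GS, a GeneSwitch driver for all glia that becomes active when the drug RU486 is fed, and a construct for RNA interference with Ugt35b, which codes for a UDP-glycosyltransferase. RU486 flies had the knockdown turned on by the drug, and their controls received ethanol (EtOH), the solvent. Both groups shared this genotype and were collected at day 10, with 3 libraries each. The series set out to look for molecular changes behind a shortened lifespan. The sample labels call the tissue head, whereas the protocol says that RNA came from brains, with 10 flies and 500 ng of total RNA per library. Flies fed RU486 without the construct were not analysed here, so the drug and the knockdown cannot be told apart. Separate vials or matings are not recorded for the libraries, so p-values reflect library-to-library spread, part of which may be technical. The knockdown was driven in glia while the RNA came from all cells, and in such bulk RNA fewer cells of a type and less RNA per cell cannot be told apart.

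Long non-coding RNAs are transcripts without a long open reading frame, and only a few have a known job in flies. The roX RNAs, made in males, join the male-specific lethal (MSL) protein complex, which coats the single male X chromosome and raises its transcription to match the female pair. Hsromega is a nuclear RNA induced by heat and other stress that gathers RNA-binding proteins into bodies called omega speckles. Other members are host transcripts of microRNAs, and flam is a cluster of transposon remnants whose transcript is cut into piRNAs that silence transposons in ovarian follicle cells. Most of the rest carry only a number and have no established function.

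RU486 libraries held 10389133, 10633167 and 10156909 counts, fewer than the 12455812, 11689966 and 12636787 of EtOH libraries. The targeted gene, Ugt35B1 (FBgn0026314), fell to 106, 83.5 and 104 CPM (counts per 1000000 counts) in RU486 libraries, against 145, 136 and 147 CPM in EtOH libraries (log2 fold change -0.54, SE 0.09, adjusted p = 0.00865), a call that was lost without EtOH library 3 (adjusted p = 0.0566). Photoreceptor markers summed to between 56857 and 61093 CPM in RU486 libraries and between 60471 and 70339 CPM in EtOH libraries, so all 6 libraries held RNA of the eye. Of 8 tested glial genes, 1 was higher, 3 were lower and 4 did not pass. The log2 fold change was 0.73 for bdl, against -2.10 for wrapper, -1.92 for Gat and -0.89 for zyd. Sums over the list were 3951 to 4316 CPM in RU486 libraries and 4093 to 4282 CPM in EtOH libraries. Gs2 was the largest part of these sums, at means of 2054 and 2061 CPM, so they do not show the changes of single genes. Of 7 tested fat body genes, 1 was higher and 5 were lower. Tsf1 rose (0.90), whereas Obp99b (-4.49), Lsp1beta (-3.51), Yp1 (-1.72), Yp2 (-1.66) and Yp3 (-0.37) fell. The fat body sums, carried mainly by apolpp and Tsf1, were 7734 to 8216 CPM in RU486 libraries and 7011 to 7796 CPM in EtOH libraries. Libraries numbered 2 stood apart: within a group, pairs with library 2 differed by a chi-square per degree of freedom of 19.0 to 32.8, and the other pair of each group by 8.09 and 8.48. RU486 library 2 also held 10806 CPM of 20 listed gut genes and RU486 library 3 held 875 CPM, while RU486 library 1 held 39.0 CPM and EtOH libraries held 35.7 to 64.5 CPM, with 5 of the 20 at 0 in all libraries. The 5 listed neuron genes summed to 3716, 5011 and 4223 CPM in EtOH libraries 1, 2 and 3, against 4141 to 4283 CPM in RU486 libraries. The part of gut, glial, fat body or neuron RNA in the results below was not tested. The count of called members is also given without the libraries numbered 2.

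Of the 59 members, 46 were named lncRNA:, 5 asRNA: and 8 by a CR number alone. Those 8 were all annotated as pseudogenes, so the label "long non-coding RNA" held for 51 of the 59. The 16 members on X included both roX genes, 3 members lay on the small chromosome 4, and arms 2L, 2R, 3L and 3R held 9, 7, 11 and 13. A single exonic block made up 29 of the 59, and the others had more. The median exonic length was 1591 bases (214 to 21710), against 2223 bases for tested protein-coding genes. Coding genes were close by: 44 members lay within 1000 bases of one, 21 of these overlapping its span, and 6 lay over 10000 bases from any. Coordinates are those of the BDGP6.54 annotation (Ensembl), counted from 1.

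Non-coding genes inside coding genes had almost no counts. Among the 2645 rows with a non-coding symbol, 743 lay wholly inside a protein-coding gene, and 741 of those had 0 counts in every library. The 2 with counts were CR45473 inside tyn, a member with 836 counts, and CR45169 inside tna, with 9, both named after their values were seen. Outside coding genes, 778 of 1902 rows (40.9%) were at 0. Coding genes inside a member could be at 0 too: Dsk in CR33294, CG6497 in CR43870, CG13373 in CR18275 and Cyp6t1 in CR45082. These were also named after their values were seen. A count of 0 inside a host gene was therefore not taken as a measure of expression, and 1 of the 59 members lay inside a coding gene. Still, 26 members shared exonic bases with another gene, 18 of them with a coding gene, and the strand setting of the counting is not given in the sources used here. Reads of such overlapping or antisense pairs cannot be told apart with certainty. The share of exonic bases free of any other gene was under 75% in 5 members, the lowest being 29.8% in CR45479.

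Non-coding counts were concentrated in very few genes. Members held 607534 counts, which was 95.7% of all counts in rows with a non-coding symbol and 0.894% of all counts in the table. Their share was 0.900%, 0.894% and 0.960% in RU486 libraries, against 0.803%, 0.948% and 0.875% in EtOH libraries, so the groups overlapped. CR42862 alone took 67.6% of members' counts and roX1 another 18.8%, leaving 13.6% for the other 57. At the low end, 28 members had fewer than 100 counts in their mean library. Median spread between replicates (coefficient of variation of CPM) was 10.1% in RU486 libraries and 14.0% in EtOH libraries.

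CR42862 (FBgn0262109, chromosome 3L, 224106 to 230964, plus strand) was the sixth most-counted gene of the whole table and took 0.604% of all counts. It reached 6133, 6264 and 6563 CPM in RU486 libraries, against 5314, 6588 and 5593 CPM in EtOH libraries. EtOH library 2 was the highest of all 6, above every RU486 library, and the other EtOH libraries were the lowest, so the groups overlapped. The difference did not pass the test (log2 fold change 0.12, SE 0.08, adjusted p = 0.440), and it turned on single EtOH libraries: it was 0.21 without EtOH library 2 (adjusted p = 0.0162) and 0.035 without EtOH library 1 (adjusted p = 0.865). With a correction for exonic length it was 0.042 (adjusted p = 0.582). CG33229, the coding gene whose exon CR42862 overlaps, had 64 counts in all. Among the 6 libraries, the neuron sum given above was likewise highest in EtOH library 2 and lowest in EtOH library 1. Whether this bears on CR42862 was not tested.

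Per exonic length, levels spanned from 0.249 RPKM (CPM per kilobase of exon) in CR46003 to 1108 RPKM in CR42862, with a median of 6.38 RPKM. After CR42862, the highest levels were 309 RPKM for roX1 and 101 RPKM for mimi. The next were 50.3 RPKM for CR44832, 45.4 RPKM for CR31781, 36.7 RPKM for CR45456 and 33.8 RPKM for CR45457. The 10 highest ended with roX2 at 31.7 RPKM, CR18228 at 31.3 RPKM and CR44024 at 30.8 RPKM, so roX2, CR18228 and CR44024 lay close together. Hsromega, the third member by counts, stood at 11.3 RPKM with the longest annotated exons of any member, 21710 bases. CR45456 and CR45457 are neighbours on 2L, 317 bases apart on 1 strand. CR45456 had 30.8, 34.0 and 34.5 CPM in RU486 libraries, against 27.2, 42.2 and 24.4 CPM in EtOH libraries, and EtOH library 2 was again the highest of the 6. CR45457 had 15.9, 18.4 and 17.0 CPM in RU486 libraries, against 17.9, 19.1 and 16.3 CPM in EtOH libraries, with the groups overlapping.

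**Figure D1:**
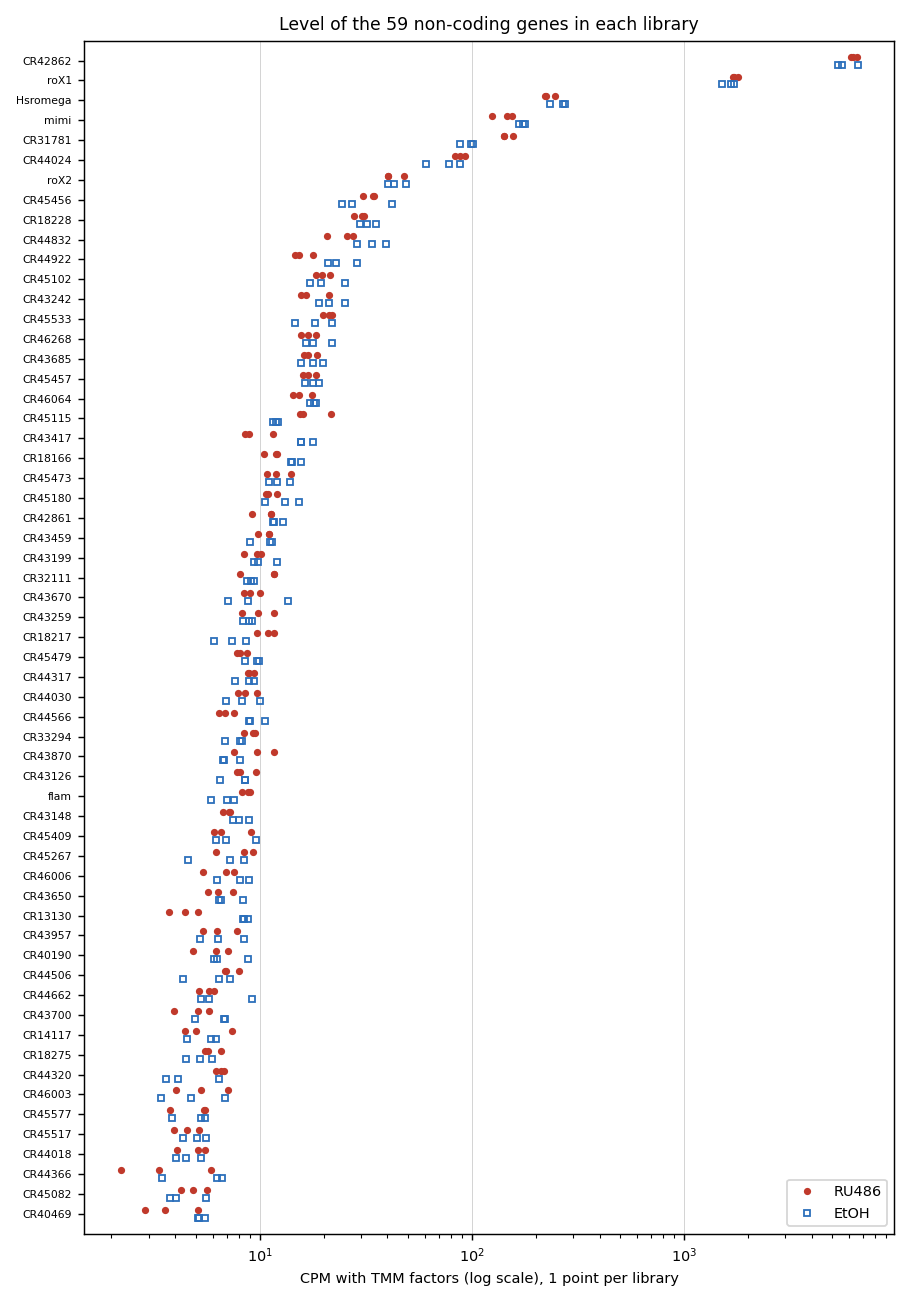
Level of each of the 59 members in CPM (log axis), 1 point per library, ordered by summed counts, with RU486 libraries (filled) drawn above EtOH libraries (open). CR42862, at 5314 to 6588 CPM, and roX1, at 1515 to 1794 CPM, stand apart from the other 57, which reach down to 2.22 CPM in CR44366.

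The roX RNAs of the male X chromosome did not pass the test. roX1 (FBgn0019661, X, 3857230 to 3862697, minus strand) had 1721, 1712 and 1794 CPM in RU486 libraries, against 1515, 1665 and 1719 CPM in EtOH libraries. EtOH library 1 was the lowest, and EtOH library 3 lay among RU486 libraries. Its log2 fold change was 0.09 (95% interval -0.06 to 0.25, adjusted p = 0.471), or 0.025 without EtOH library 1. roX2 (FBgn0019660, X, 11579065 to 11580432, plus strand) had 40.5, 40.4 and 47.8 CPM in RU486 libraries, against 40.4, 48.7 and 42.9 CPM in EtOH libraries. Its groups overlapped throughout, with a log2 fold change of -0.04 (95% interval -0.27 to 0.20, adjusted p = 0.888) whose sign turned under other settings. Per length, roX1 stood far above roX2 in both groups.

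Among 8 listed genes of the dosage compensation machinery, all tested, 1 was higher, 0 were lower and 7 did not pass, with a median log2 fold change of 0.05 against 0.00 over all 8945 genes tested. The called gene was maleless (mle), the RNA helicase that remodels roX RNA. mle rose to 206, 186 and 203 CPM in RU486 libraries, against 154, 154 and 151 CPM in EtOH libraries, with no overlap (log2 fold change 0.38, SE 0.07, adjusted p = 0.0129). That call was made in 2 of the 6 fits that left out a library: it was lost without EtOH library 1 (adjusted p = 0.0531), EtOH library 3 (0.0573), RU486 library 1 (0.0634) or RU486 library 3 (0.0601). mof, the histone acetyltransferase of the complex, averaged 15.7 ± 1.22 CPM in RU486 libraries and 12.9 ± 0.760 CPM in EtOH libraries (SD, n = 3 each), with an adjusted p = 0.179. The scaffold and binding proteins msl-1, msl-2, msl-3 and Clamp had log2 fold changes between -0.03 and 0.07. Over the X chromosome the median log2 fold change was 0.04 for 1428 tested genes, against -0.00 for 7362 genes of the large autosomal arms.

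Hsromega (FBgn0001234, 3R, 21296127 to 21317836, plus strand) had 224, 222 and 245 CPM in RU486 libraries, against 276, 234 and 268 CPM in EtOH libraries. RU486 library 3 lay above EtOH library 2, so the groups overlapped. The difference was -0.17 on the log2 scale (95% interval -0.37 to 0.03, adjusted p = 0.311). In the 6 fits that left out a library, it ranged from -0.24 to -0.14, with adjusted p between 0.0502 and 0.575. With a correction for exonic length, of which Hsromega has the most among members, it was -0.46 (adjusted p = 0.158). How well the correction holds at that length was not tested. None of 12 listed proteins of omega speckles, all tested, passed in edgeR, DESeq2 or limma-voom, against 7.64% of all tested genes in edgeR. An unadjusted p under 0.05 was seen in 0 of the 12, against 22.3% of all tested genes. The median log2 fold change of the 12 was -0.01. Among the heterogeneous nuclear ribonucleoproteins, Hrb87F, a core speckle protein, averaged 122 ± 3.20 CPM in RU486 libraries and 122 ± 3.62 CPM in EtOH libraries (SD, n = 3 each). EtOH libraries spread more for others: sqd averaged 549 ± 13.6 CPM in RU486 libraries and 505 ± 56.5 CPM in EtOH libraries. Hrb27C averaged 796 ± 4.32 CPM and 758 ± 71.3 CPM.

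**Figure D2:**
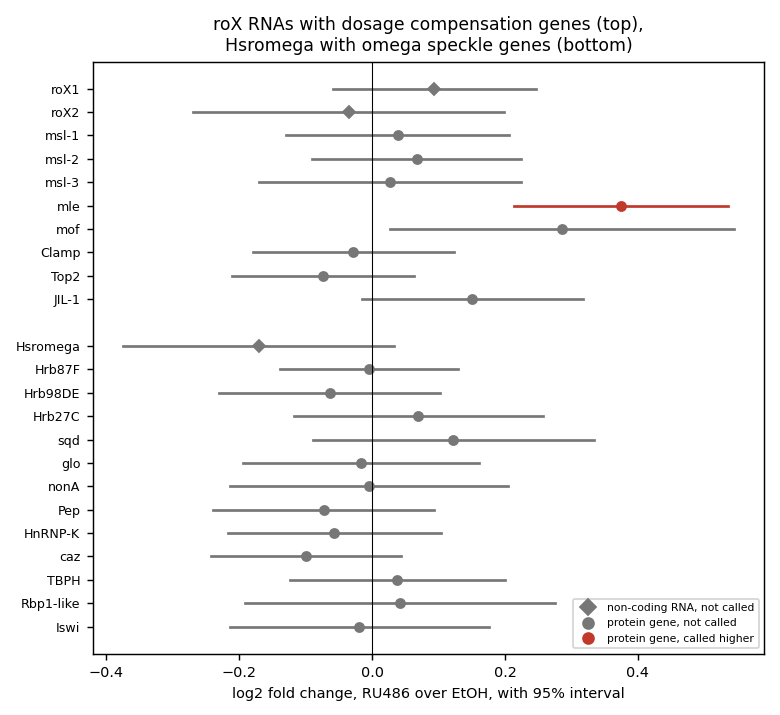
Log2 fold change (RU486 over EtOH) with its 95% interval for the dosage compensation and omega speckle lists beside roX1, roX2 and Hsromega. In the dosage compensation list mle, at 0.38, is the called gene, and no omega speckle gene was called.

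The main comparison asks which members differed between RU486 and EtOH flies. With edgeR's quasi-likelihood test and Benjamini-Hochberg adjustment over all 8945 tested genes at 0.05, 5 of the 59 members were called, 2 higher and 3 lower. All 59 entered the test. With the 4 members under 150 counts in RU486 libraries set aside, 4 of 55 were called (7.27%), 2 higher and 2 lower, 13 (23.6%) had groups without overlap, and the median log2 fold change was -0.04. The share of 8.47% over all 59 lay near the background: 7.64% of all tested genes were called, 4.36% higher and 3.28% lower. Among other tested genes of at least 300 counts, 8.25% were called. The groups did not overlap in 15 members (25.4%), against 27.3% of all tested genes, and 11 members (18.6%) had an unadjusted p under 0.05, against 22.3%. Members' median log2 fold change was -0.05, against 0.00 over all tested genes, with 26 above and 33 below 0. No member's estimate reached 2-fold: the range ran from -0.94 to 0.61 on the log2 scale.

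How small a change could have been seen differed between members. The 95% interval extended 0.15 to 0.84 to either side of the log2 fold change, with a median of 0.35. It lay wholly within a 2-fold change either way in 56 members and within a 1.5-fold change in 33. Single libraries moved the count of calls among members and among all genes alike. Leaving out EtOH library 1 left 2 calls (3.39% of members, against 4.38% of all genes tested then), and leaving out EtOH library 3 left 1 (1.69%, against 3.75%). Any 1 RU486 library left out gave 3 (5.08%, against 4.42% to 5.43%), and leaving out EtOH library 2 gave 8 (13.6%, against 15.9%). Without both libraries numbered 2, 9 members (15.3%) were called, against 15.5% of all genes tested then, so both shares were again close.

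**Figure D3:**
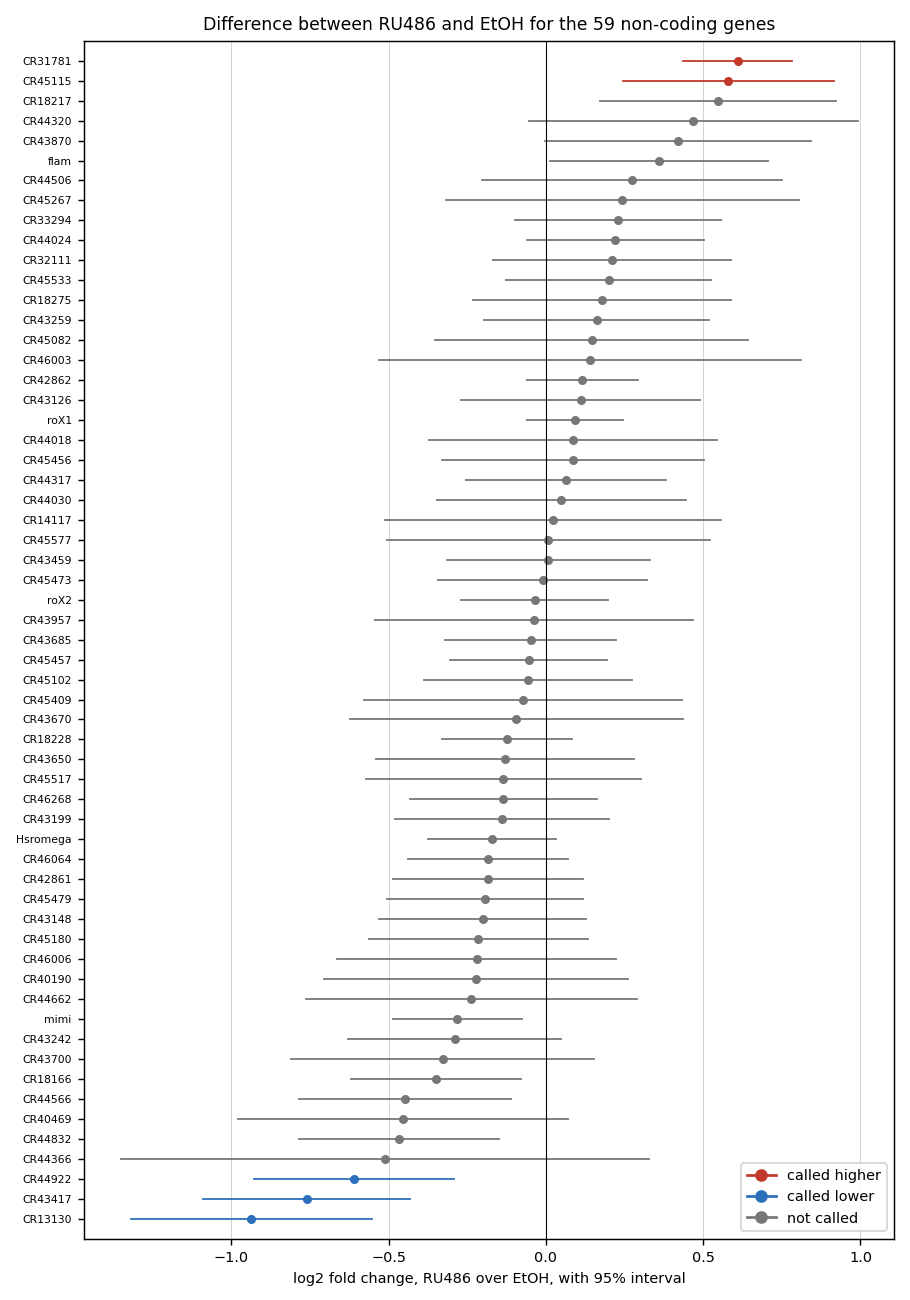
Log2 fold change (RU486 over EtOH) of all 59 members with 95% intervals, ordered by size, with called members marked. Estimates run from -0.94 for CR13130 to 0.61 for CR31781, and 5 members are called.

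CR31781 (FBgn0051781, 2L, 16869346 to 16878300, plus strand) was the member with the smallest adjusted p. It rose to 142, 142 and 157 CPM in RU486 libraries, against 101, 88.3 and 99.1 CPM in EtOH libraries, and its lowest RU486 library lay well above the highest EtOH library. The log2 fold change was 0.61 (SE 0.08, adjusted p = 0.00158), and CR31781 was called in all 16 fits, the 6 that left out a library among them. Its exons overlap no other gene. The nearest coding gene, CG32832, lies 26 bases away and had 0 counts in all 6 libraries.

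CR45115 (FBgn0266590, 3L, 6865449 to 6866439, minus strand) rose to 21.7, 16.0 and 15.5 CPM in RU486 libraries, against 11.5, 11.9 and 12.2 CPM in EtOH libraries. RU486 library 1 stood highest, and all 3 lay above the EtOH libraries. The log2 fold change was 0.58 (SE 0.15, adjusted p = 0.0482), just under the threshold. The call was made in 0 of the 6 fits that left out a library, with adjusted p between 0.0530 and 0.166, and was also lost with library size alone (0.0567), with limma-voom (0.0541) and with no filter (0.0673). Its nearest coding gene, Prat2, an enzyme of purine synthesis, lies 45560 bases away and had a log2 fold change of -0.44 (adjusted p = 0.0871).

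The lower member with the largest estimate, CR13130, reached 300 counts through the EtOH group, with 137 counts summed over RU486 libraries and 315 over EtOH libraries, so the threshold favoured its difference. CR13130 (FBgn0040965, 2L, 9983671 to 9984743, minus strand) fell to 4.44, 3.75 and 5.13 CPM in RU486 libraries, against 8.76, 8.30 and 8.45 CPM in EtOH libraries. The EtOH libraries lay close together, and no library crossed between groups. The log2 fold change was -0.94 (SE 0.17, adjusted p = 0.0103), lost without EtOH library 1 (adjusted p = 0.0508) or EtOH library 3 (0.0566). CR13130 overlaps an exon of bib (big brain), a neurogenic gene on the opposite strand, and 88.1% of its exonic bases are free of other genes. bib itself averaged 9.81 ± 0.929 CPM in RU486 libraries and 13.3 ± 1.09 CPM in EtOH libraries (SD, n = 3 each), a log2 fold change of -0.44 that did not pass (adjusted p = 0.0817).

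CR43417 (FBgn0263336, 2R, 16817519 to 16819240, minus strand) fell to 8.50, 8.94 and 11.5 CPM in RU486 libraries, against 17.8, 15.7 and 15.7 CPM in EtOH libraries. RU486 library 3 was the highest of its group and still lay below all EtOH libraries. The difference was -0.76 on the log2 scale (SE 0.15, adjusted p = 0.0134), lost without EtOH library 1 (adjusted p = 0.0643) or EtOH library 3 (0.0566). CG5550, which overlaps it on the opposite strand, had 87 counts in all and a log2 fold change of 0.62 (SE 0.62, adjusted p = 0.622), and 95.7% of the exonic bases of CR43417 are free of other genes.

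CR44922 (FBgn0266227, 3R, 4375084 to 4377600, plus strand) fell to 14.7, 15.4 and 17.8 CPM in RU486 libraries, against 21.1, 22.9 and 28.9 CPM in EtOH libraries. EtOH library 3 was the highest, and the groups did not overlap. The log2 fold change was -0.61 (SE 0.14, adjusted p = 0.0328), lost without EtOH library 3 (adjusted p = 0.122) or any 1 of RU486 libraries 1 (0.112), 2 (0.0856) and 3 (0.0574). Sfxn1-3, which encodes a mitochondrial carrier of the sideroflexin family and lies 1000 bases downstream on the same strand, had a log2 fold change of -0.17 (adjusted p = 0.260).

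**Figure D4:**
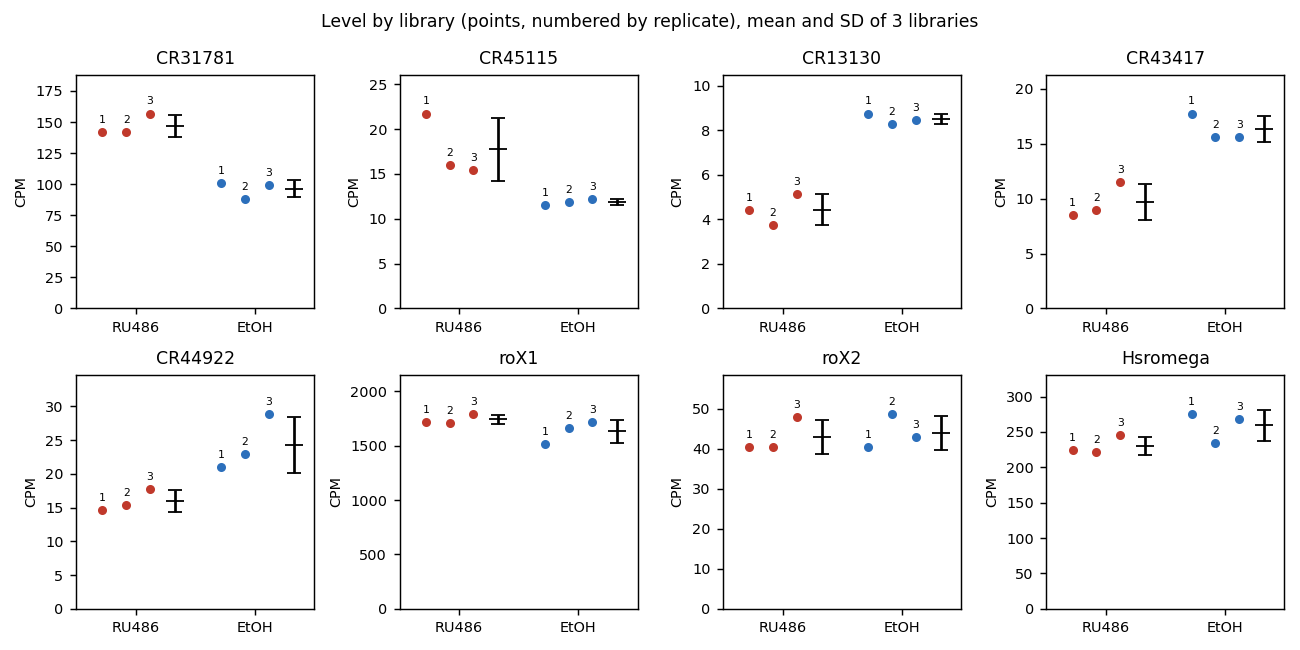
CPM in each library for the called members and the known RNAs, RU486 libraries left of EtOH libraries, digits giving the library number and bars the mean ± SD of 3 libraries. The 5 called members show no overlap between groups, whereas roX1, roX2 and Hsromega overlap.

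Another 10 members showed no overlap between the groups without passing the test. With the 5 called, they make up the 15 members (25.4%) without overlap, against 27.3% of all tested genes. Of the 10, those outside the lists of highest levels and largest changes were named after their values were seen. Lower in all RU486 libraries were CR44832, mimi, CR44566, CR18166, CR40469, CR42861 and CR43148, and higher were CR18217, flam and CR33294. CR44832 (FBgn0266095, X, 5790952 to 5791536) had 25.8, 20.9 and 27.5 CPM in RU486 libraries, against 34.0, 28.8 and 39.6 CPM in EtOH libraries. Its log2 fold change of -0.47 (adjusted p = 0.0803) passed with DESeq2 (adjusted p = 0.0458) and without EtOH library 2 (0.0289). mimi (FBgn0051451, 3R, 23983503 to 23985065), which followed roX1 in level per length, had 147, 124 and 155 CPM in RU486 libraries, against 174, 167 and 178 CPM in EtOH libraries. RU486 library 2 was the lowest of mimi, and the log2 fold change was -0.28 (SE 0.09, adjusted p = 0.101).

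Besides Hsromega, which spans mir-4951, 3 members wholly span microRNAs on their own strand. mimi, given above, shares 67 exonic bases with mir-9381 on the same strand without spanning it. Of the 3, 0 were called in edgeR, DESeq2 or limma-voom and 0 had an unadjusted p under 0.05. With 7.64% of all tested genes called in edgeR, 0 of 3 says little about them as a set. CR43459 (3R, 10093761 to 10101356), which spans mir-277 and mir-34, had 11.0, 9.81 and 11.1 CPM in RU486 libraries, against 9.00, 11.5 and 11.2 CPM in EtOH libraries (log2 fold change 0.01, adjusted p = 0.984). CR43650 (2R, 16829095 to 16839494), host of mir-8, had 5.70, 6.35 and 7.50 CPM in RU486 libraries, against 8.36, 6.59 and 6.43 CPM in EtOH libraries (-0.13, adjusted p = 0.737). CR46006 (3L, 10323501 to 10367450), host of mir-276a, had 5.41, 6.92 and 7.60 CPM in RU486 libraries, against 6.27, 8.90 and 8.06 CPM in EtOH libraries (-0.22, adjusted p = 0.571). In each of these the groups overlapped. A host transcript's level is not the level of its microRNA, which these libraries were not made to measure.

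flam (X, 21631891 to 21790731, plus strand), the piRNA precursor, had counts in these male heads at a low level of 0.445 RPKM. It had 8.79, 9.04 and 8.29 CPM in RU486 libraries, against 5.87, 7.53 and 6.98 CPM in EtOH libraries. All RU486 libraries lay above all EtOH libraries, but the log2 fold change of 0.36 (95% interval 0.01 to 0.70) did not pass after adjustment (adjusted p = 0.208). Transposon remnants can share reads with other copies, and no source used here says how such reads were counted. Counts of flam are uncertain for that reason.

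Of the 8 pseudogenes, 0 passed in edgeR, DESeq2 or limma-voom and 2 (25%) had an unadjusted p under 0.05, CR18217 and CR18166. In edgeR, 7.64% of all tested genes were called and 22.3% had an unadjusted p under 0.05. With such a background, 0 of 8 says little about pseudogenes as a set. The log2 fold changes of the 8 were 4 above and 4 below 0. CR18217 (FBgn0036646, 3L, 16600448 to 16602723) had the largest positive log2 fold change after the called members, with 11.7, 11.0 and 9.67 CPM in RU486 libraries, against 7.40, 6.08 and 8.60 CPM in EtOH libraries (0.55, adjusted p = 0.0839). CR18166 (X, 479864 to 481826) had 10.4, 12.1 and 11.9 CPM in RU486 libraries, against 15.7, 14.2 and 14.0 CPM in EtOH libraries (-0.35, adjusted p = 0.121). It lies 554 bases from another pseudogene member, CR18275, whose log2 fold change was 0.18, so the estimates of the pair lay on opposite sides of 0, with neither passing. Pseudogenes can share reads with the gene they were copied from, and no source used here says how such reads were counted.

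The 5 antisense RNAs lie across developmental or metabolic genes on the other strand. CR44018 overlaps hth, a homeobox gene, CR43957 overlaps ci, the transcription factor of Hedgehog signalling, and CR45479 overlaps Cyp4d14, a cytochrome P450 gene. Their log2 fold changes lay between -0.19 and 0.16. Over all tested genes, edgeR called 7.64%, and 22.3% had an unadjusted p under 0.05. Of the 5 antisense RNAs, 0 were called in edgeR, DESeq2 or limma-voom and 0 had an unadjusted p under 0.05. The least certain was CR45479, with 7.82, 8.75 and 8.09 CPM in RU486 libraries, against 8.52, 9.76 and 9.92 CPM in EtOH libraries, since 29.8% of its exonic bases are its own. CR44018, with 96.8% of its exonic bases its own, had 4.06, 5.10 and 5.52 CPM in RU486 libraries, against 4.50, 5.31 and 4.03 CPM in EtOH libraries. In both the groups overlapped.

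Members with other numbers and no call differed in how well they were measured. CR44024, a well-counted member on chromosome 4 (427331 to 431769, plus strand), had 83.2, 87.6 and 92.9 CPM in RU486 libraries, against 60.5, 87.9 and 78.0 CPM in EtOH libraries (log2 fold change 0.22, SE 0.12, adjusted p = 0.347). EtOH library 1 was the lowest, and EtOH library 2 lay among the RU486 libraries. The log2 fold change of CR44024 was 0.066 without EtOH library 1 (adjusted p = 0.757) and 0.34 without EtOH library 2 (adjusted p = 0.0870). CR18228 (3R, 8260706 to 8261898, minus strand), which overlaps mtg, had 27.8, 30.4 and 31.1 CPM in RU486 libraries, against 32.2, 29.7 and 35.3 CPM in EtOH libraries (-0.12, SE 0.09, adjusted p = 0.485), with -0.056 when EtOH library 3 was left out. CR44366, with the largest SE of all members, had 2.22, 3.37 and 5.92 CPM in RU486 libraries, against 3.46, 6.68 and 6.28 CPM in EtOH libraries. Its log2 fold change was -0.51 (95% interval -1.35 to 0.33), a range wider than 2-fold that includes 0, and leaving out 1 library moved it between -0.97 and -0.25. CR40469, the least-counted member and another that passed the threshold through EtOH libraries, had 3.57, 2.88 and 5.13 CPM in RU486 libraries, against 5.55, 5.13 and 5.19 CPM in EtOH libraries, with no overlap by a narrow margin (-0.45, SE 0.23, adjusted p = 0.294). Leaving out 1 library moved that value between -0.71 and -0.28. On X, 0 of 16 members were called in edgeR or limma-voom and 1 with DESeq2. At an unadjusted p under 0.05 there were 3 (18.8%). Over all tested genes on X, edgeR called 7.14%, and 21.6% had an unadjusted p under 0.05.

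Members' differences showed no common trend with those of the coding genes beside them. Of the 59, 45 had a nearest coding gene that was tested, 33 of them within 1000 bases. Across those 33 pairs, which share libraries, Pearson's r between log2 fold changes was -0.02 and Spearman's rho 0.15, and 21 pairs had the same sign. For the 13 overlapping pairs, whose reads could mix, r was 0.04. Within 1000 bases, 3 of the 33 nearest coding genes were called, where 7.64% of all 8945 tested genes were. Each stood beside a member that was not called. Most members were not called, so this placing says nothing about the pairs. The first was echinus (ec), an eye development gene that overlaps the end of roX1 on the opposite strand. ec rose to 23.7, 19.7 and 23.8 CPM in RU486 libraries, against 15.4, 16.9 and 13.8 CPM in EtOH libraries (log2 fold change 0.54, adjusted p = 0.0286), and 92.8% of the exonic bases of roX1 are free of other genes. The second, CG11368, 10 bases from CR43199, fell to 121 ± 17.7 CPM in RU486 libraries, against 209 ± 30.6 CPM in EtOH libraries (SD, n = 3 each), a log2 fold change of -0.78 (adjusted p = 0.00835). The third, CG16756, 266 bases from CR45517, fell to 23.6 ± 2.83 CPM in RU486 libraries, against 36.2 ± 2.32 CPM in EtOH libraries, a log2 fold change of -0.62 (adjusted p = 0.00772). The call of ec was lost without EtOH library 1 (adjusted p = 0.117), EtOH library 3 (0.128), RU486 library 1 (0.113) or RU486 library 3 (0.105), and that of CG11368 without EtOH library 3 (0.0542).

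**Figure D5:**
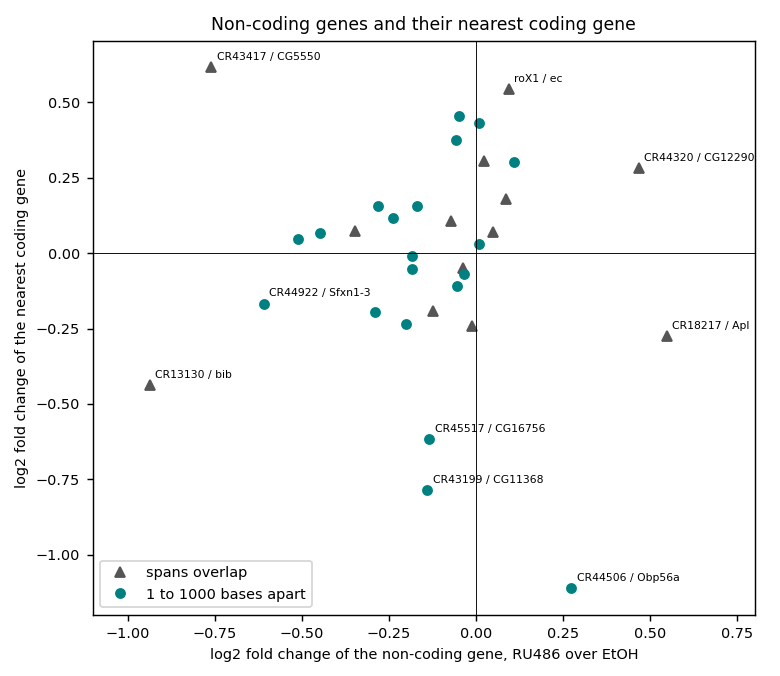
Log2 fold change (RU486 over EtOH) of members against that of their nearest tested protein-coding gene, for the 33 pairs within 1000 bases. The points show no common trend, with a Pearson's r of -0.02.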

How the data were processed

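Gene-level raw counts were used as deposited, 1 column per library and not normalised, per the file headers. BDGP6 is the build in the submitters' processing notes. The aligner, counter and strand setting were not given in the sources used here. Libraries were made with a stranded mRNA kit, per the labels' protocols. Symbols and positions came from the FlyBase identifiers, of which 17626 matched a symbol and 127 did not.

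Counts were tested with edgeR 4.0.16 in R 4.3.3: filterByExpr with a minimum count of 10, TMM scaling, the quasi-likelihood test of RU486 over EtOH on all 6 libraries, and Benjamini-Hochberg adjustment over all 8945 genes kept. CPM used TMM-scaled library sizes (marker sums did not), RPKM is that CPM divided by exonic length in kilobases, and 95% intervals are unadjusted. Totals ran from 10156909 to 12636787 counts per library. Alternatives were DESeq2 1.42.0, limma-voom (limma 3.58.1), other scalings and filters, a replicate block, other member thresholds and leaving out libraries. The correction for exonic length took a smooth trend of log2 CPM on log2 exonic length out of each library.

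Members and gene lists were chosen with earlier results of these data known. Genes were named by a rule: roX1, roX2, Hsromega, the 10 highest by RPKM, members above 0.5% of a library, called members with their neighbouring coding gene, the 3 largest changes each way, the 3 members nearest the threshold and the 3 rows under it, and partner lists by counts. No library was a repeat of another: replicates differed beyond sampling noise.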

Additional observations from a re-analysis of the deposited data

How the results depend on the processing

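Members called higher numbered 2, but 1 with library size alone, with limma-voom, with no filter on low counts and among members of at least 1000 summed counts (2 of 18 called either way, 11.1%, against 9.41% of all tested genes of that count), and 1 to 4 when 1 library was left out. Members called lower numbered 3, but 1 among members of at least 1000 counts and 1 among members with no exonic overlap. Fewer genes entered there. With 1 library left out, 0 to 4 were called lower. Of the 33 members with no exonic overlap, 3 were called either way (9.09%), against 7.64% of all tested genes. With library size alone, limma-voom or no filter, 4 of 59 members were called (6.78%), against 7.66%, 7.47% and 4.98% of all genes tested. In the fits without 1 library, 3.75% to 15.9% of all genes were called, so the counts moved with the background. Leaving out both libraries numbered 2, an alternative chosen after seeing the data, gave 6 lower (15.3% of members called either way, against 15.5% of all genes). Same-numbered libraries correlated at 0.124, 0.269 and -0.0441 in their deviations from group means, so the numbers were not taken to pair them. The fit with the replicate block gave 5 lower (7 of 59 called either way, 11.9%, against 9.75% of all genes), adding mimi (adjusted p = 0.0480) and CR44832 (0.0115). roX2 turned positive without both libraries numbered 2 (0.085) and with a correction for exonic length, also chosen after seeing the data (0.012), and ranged from -0.12 to 0.043 when 1 library was left out. CR45457 turned positive with the length correction (0.074), under which Hsromega was at -0.46, roX1 at 0.014 and CR42862 at 0.042. CR45456 ranged from -0.066 to 0.36 when 1 library was left out, the highest without EtOH library 2. The length correction brought CR18217 past the threshold (adjusted p = 0.0488). In the other planned fits both counts stayed within 1.5 times. The causes were not tested. Members with few counts limit the precision: 28 had under 100 counts in their mean library.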

Other observations

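Among non-coding genes of at least 300 counts whose symbols the choice of members did not cover, 5 were host genes of small nucleolar RNAs (Uhg1 to Uhg5) and 2 were hairpin RNA precursors. None of these 7 passed in edgeR, DESeq2 or limma-voom, against 7.64% of all tested genes in edgeR. An unadjusted p under 0.05 was seen in 0 of the 7, against 22.3% of all tested genes. The hairpin RNA CR18854 was the highest, with 391, 390 and 386 CPM in RU486 libraries, against 415, 371 and 437 CPM in EtOH libraries (log2 fold change -0.07, 95% interval -0.26 to 0.13). Uhg5 averaged 17.2 ± 2.21 CPM in RU486 libraries and 15.6 ± 2.36 CPM in EtOH libraries (SD, n = 3 each).

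Some members that were not called over all 6 libraries were called in another fit. Without EtOH library 2, CR44320 had a log2 fold change of 0.75 (adjusted p = 0.0434) and CR45456 one of 0.36 (adjusted p = 0.0401). Without both libraries numbered 2, CR43242 had an adjusted p = 0.0292. These were named after their values were seen.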
